A study of Mus musculus with 7 samples.

Results

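The matrix metalloproteinases (MMPs), the ADAMTS proteases, the ADAMTS-like proteins and the tissue inhibitors of metalloproteinases (TIMPs) were described in tumour cells of mice with glioblastoma, an aggressive brain tumour. Members were taken by gene symbol alone, which gave 51 genes of the 23282 in the count table. They were 23 MMP genes, 19 ADAMTS genes, 5 ADAMTS-like genes and 4 TIMP genes. Cells positive for the red fluorescent protein tdTomato had been sorted by flow cytometry from tumours of adult C57BL/6 mice, separately for each mouse. The groups were 3 libraries of WT tumours and 4 libraries of Fyn-KO tumours, Fyn being a cytoplasmic tyrosine kinase related to Src. The sources used here do not give how the tumours were started, which cells carry tdTomato, which part of Fyn was altered or in which cells. QuantSeq libraries were sequenced, in which each transcript gives a tag near its 3' end, so levels in counts per 1000000 counts (CPM) need no correction for transcript length.

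MMPs are zinc-dependent endopeptidases that are made as inactive zymogens and cut collagens, laminins and other proteins of the extracellular matrix. Some are secreted and others are held at the cell surface by a transmembrane or a glycosylphosphatidylinositol anchor. ADAMTS proteases are secreted relatives with thrombospondin repeats, known for cutting the hyaluronan-binding proteoglycans of the brain matrix, procollagens and von Willebrand factor, and ADAMTS-like proteins share the repeats but lack the protease domain. TIMPs bind the active site of these enzymes and block it. In gliomas the families are known for their part in matrix turnover and invasion.

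Libraries held 8976745 to 16371244 counts, with 7723 to 9924 genes having a count in WT and 13535 to 14548 in Fyn-KO. Fyn itself was lower in Fyn-KO but present (1121 ± 448 CPM, SD, n = 3, against 119 ± 49.5 CPM, n = 4, edgeR adjusted p = 0.0121). Markers of the oligodendrocyte lineage, 10 of 10 with counts in both groups, summed to 13115 to 29474 CPM in WT and to 225 to 1317 CPM in Fyn-KO. Markers of ovarian granulosa and luteal cells, 12 of 12 with a count in Fyn-KO, summed to 23566 to 27149 CPM there and to 4.54 to 285 CPM in WT, where Fshr, Lhcgr and Cyp19a1 were at 0. Adrenal cortex markers, of which 7 of 9 had a count in Fyn-KO and Cyp11b2 and Mc2r were at 0, summed to 17404 to 18415 CPM in Fyn-KO and to 0 to 181 CPM in WT. Star and Cyp11a1 are in both the ovarian and the adrenal list. They stood at 4601 ± 439 and 11984 ± 798 CPM in Fyn-KO and were the only adrenal markers with a WT count. Most of the adrenal sum is therefore shared with the ovarian sum and is not a separate signal. Endothelial markers ran from 1.10 to 828 CPM in WT and from 377 to 437 CPM in Fyn-KO. By these markers the libraries labelled Fyn-KO go against their label of glioblastoma tumour cells, and which cells they hold is in doubt. Every Fyn-KO value and every difference from WT given here is of libraries so labelled. Genotype and cell source cannot be told apart in them.

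Of the 51 genes, 41 had a count in some library, 34 in WT and 38 in Fyn-KO. The edgeR quasi-likelihood test was run on all genes with enough counts, and 25 of the 51 entered it. Past a Benjamini-Hochberg adjusted p of 0.05, 8 rose in Fyn-KO (32.0% of those tested, where 19.0% of all tested genes rose) and 3 fell (12%, where 3.51% of all tested genes fell). The genes that rose were Timp1, Mmp23, Adamts2, Adamts7, Adamts9, Adamts15, Adamts19 and Adamtsl4. Those that fell were Timp4, Mmp12 and Mmp15. Each of the 8 that rose had fewer than 10 counts in each WT library, so they entered the test through the Fyn-KO libraries and had to differ. Of those that fell, Mmp12 entered through the WT libraries in the same way. The median log2 fold change of the 25 tested genes was 1.17, also with genes lacking WT counts at their lower bound, against 0.45 over all 13122 tested genes. In CPM, every Fyn-KO library lay above every WT library for 11 genes (26.8% of the 41 with a count, against 24.1% of all genes with a count), and the reverse held for 3 genes (7.32%, against 5.89%). These shares lay near those of all genes. By family, 1 MMP gene of 10 tested rose and 2 fell, 5 ADAMTS genes of 9 rose and 0 fell, 1 ADAMTS-like gene of 2 rose, and 1 TIMP gene of 4 rose and 1 fell. No ADAMTS gene was lower at an unadjusted p under 0.05 (0 genes in edgeR) or by DESeq2 (0 genes).

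**Figure D1:**
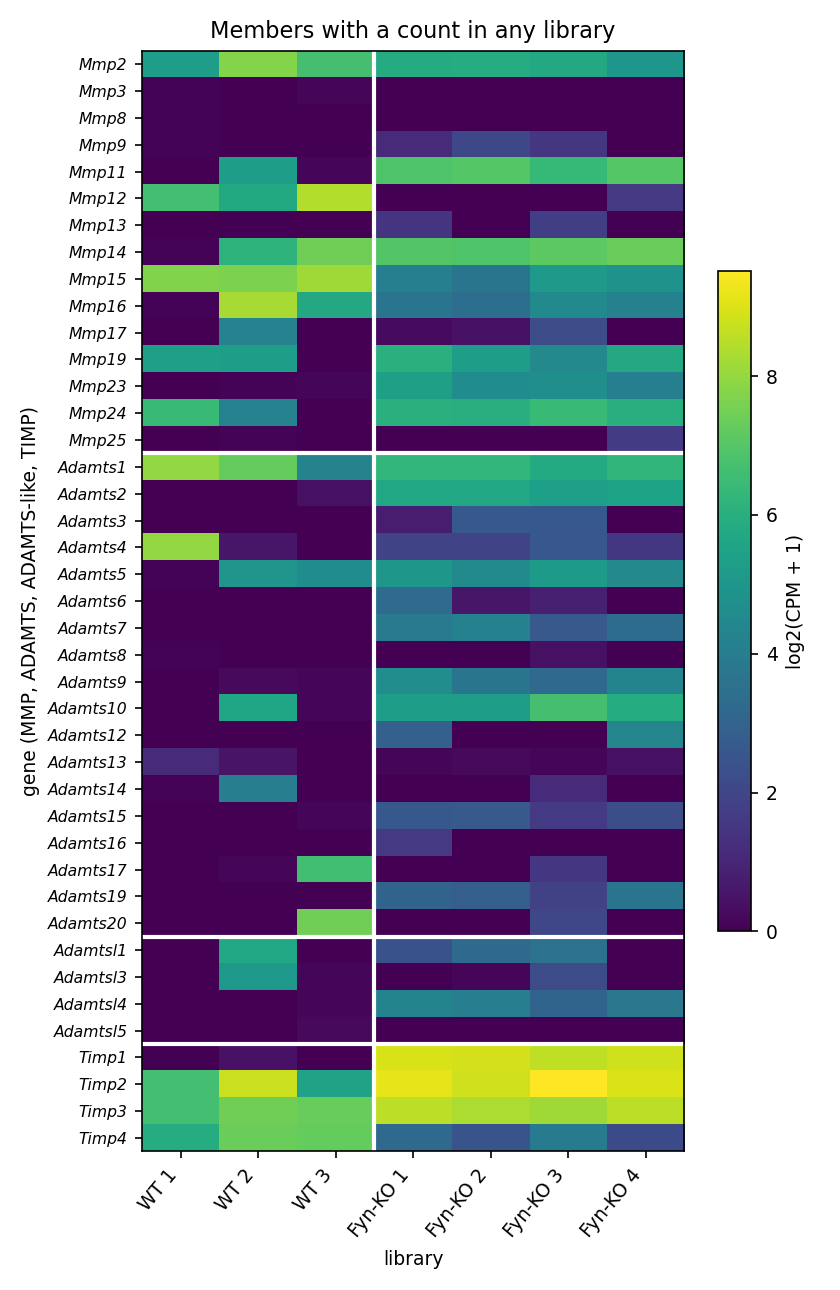
Level of each of the 41 genes with a count (rows, by family) in each of the 7 libraries (columns), as log2 of CPM plus 1. Timp1 is dark in all 3 WT libraries and bright in all 4 Fyn-KO libraries, Timp4 and Mmp15 show the reverse, and many genes are bright in 1 WT library and dark in the others.

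**Figure D2:**
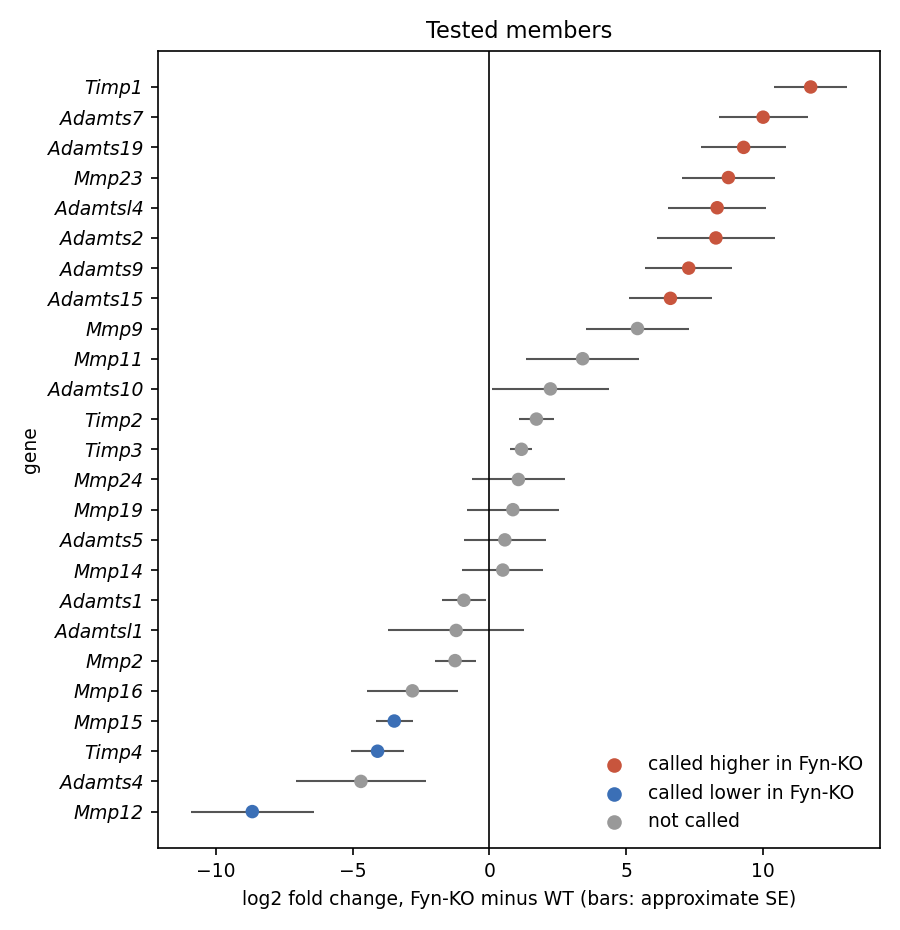
Log2 fold change (Fyn-KO minus WT, horizontal axis) of the 25 tested genes with an approximate standard error as bars, coloured by call. The 8 genes that rose all had fewer than 10 counts in each WT library, so the position of their points depends on the fit and is not a measured size.

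The TIMP genes were the most abundant family in Fyn-KO, and they changed in opposite directions. Timp1, a secreted inhibitor of most soluble MMPs, rose from almost nothing, and Timp4, the member known for expression in brain and heart, fell. Timp1 (ENSMUSG00000001131.11, GRCm38 chromosome X, 20870166 to 20874735, plus strand) stood at 0, 0.366 and 0 CPM in the WT libraries and at 491, 478, 385 and 455 CPM in the Fyn-KO libraries. The groups were far apart, and all 6 WT counts lay in WT replicate 2. Relative to library size the pooled counts were 3102 times higher in Fyn-KO (95% counting interval 1425 to 8454, pooled counts), with an edgeR adjusted p of 0.00833. The call held without any single library, and without WT replicate 2 no WT count was left. Under limma-voom it did not pass (adjusted p = 0.207).

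Timp4 (ENSMUSG00000030317.8, chromosome 6, 115241892 to 115252205, minus strand) stood at 58.0, 167 and 154 CPM in the WT libraries and at 8.42, 4.52, 14.4 and 3.45 CPM in the Fyn-KO libraries. The lowest WT library was above the highest Fyn-KO library. The means were 126 ± 59.6 (SD, n = 3) and 7.71 ± 4.97 CPM (n = 4), 16.4-fold lower in Fyn-KO. The log2 fold change was -4.09 ± 0.96 (SE) at an edgeR adjusted p of 0.0164. The call ended without Fyn-KO replicate 1 (log2 fold change -4.10, adjusted p = 0.0544) or replicate 2 (-3.89, 0.0557). It also ended when only genes counted in both groups were tested (-3.73, 0.0781) and with the replicate block (-3.84, 0.315). Timp4 lies within Syn2, a synaptic vesicle gene on the opposite strand, which fell as well, from 172 ± 92.5 to 3.23 ± 2.57 CPM (edgeR adjusted p = 0.0121). No Syn2 exon lies within the last 1000 bases of Timp4, the end near which tags are made. The sources do not say whether counting used strand, so tags of a nested gene and its host cannot be told apart where their exons overlap.

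Timp2, which inhibits MMPs and also takes part in the activation of pro-MMP2 by MMP14, had no call. It stood at 101, 432 and 43.2 CPM in the WT libraries and at 569, 457, 731 and 503 CPM in the Fyn-KO libraries. All Fyn-KO libraries were above all WT libraries, by little over WT replicate 2, and the log2 fold change was 1.72 ± 0.64 (edgeR adjusted p = 0.0935). Without WT replicate 2 it passed (2.82, adjusted p = 0.00512). Timp3, which binds to the matrix and inhibits ADAM17 and several ADAMTS proteases, stood at 100.1, 174 and 156 CPM in the WT libraries and at 378, 323, 287 and 383 CPM in the Fyn-KO libraries. The groups did not overlap, but the log2 fold change of 1.17 ± 0.40 missed the threshold (edgeR adjusted p = 0.0689). It passed without WT replicate 3 (1.47, adjusted p = 0.0134) and with library sizes alone as scaling (1.26, 0.0400). Timp1 and Timp3 also lie within synapsin genes on the opposite strand. No Syn1 exon lies within the last 1000 bases of Timp1. Syn3 has an exon within the last 1000 bases of Timp3, and it fell in Fyn-KO from 111 ± 94.8 to 3.92 ± 1.58 CPM (edgeR adjusted p = 0.0216, lost without any single Fyn-KO library, 0.0557 to 0.0718), while Syn1, the host of Timp1, had no call (adjusted p = 0.959).

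**Figure D3:**
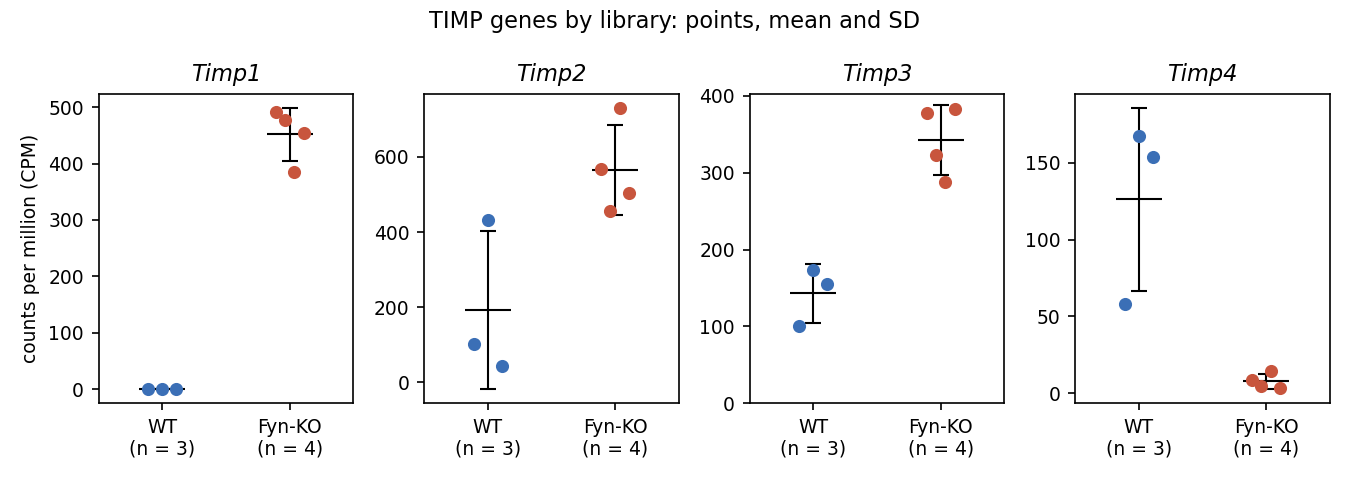
Level of the 4 TIMP genes in CPM (vertical axes, a scale for each gene) in WT (3 libraries) and Fyn-KO (4 libraries); points are libraries, horizontal lines are means and bars are SD. The groups do not overlap for any of the 4 genes, with Timp1, Timp2 and Timp3 above WT in Fyn-KO and Timp4 below.

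The sequences just before the starts of Timp1 and Timp4 are shown because these genes changed in opposite directions. They are 120 bases from RefSeq on GRCm38.p6, chrX:20870046-20870165 on the plus strand for Timp1 and chr6:115252206-115252325 on the minus strand for Timp4. Capitals mark the GC box (GGGCGG, searched on both strands), which is in the Timp1 window on the reverse strand, its first capital 8 bases before the start, and has no match in the Timp4 window.
Timp1: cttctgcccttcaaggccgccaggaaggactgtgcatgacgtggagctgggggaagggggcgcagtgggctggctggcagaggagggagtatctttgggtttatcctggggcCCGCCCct
Timp4: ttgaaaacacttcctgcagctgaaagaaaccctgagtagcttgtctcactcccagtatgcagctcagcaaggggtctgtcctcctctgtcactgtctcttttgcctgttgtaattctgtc
In windows of 250 bases before the start, the GC box letters were found for 32.7% of all RefSeq starts and for 20 of the 36 genes of these families that have a window, Timp1, Timp2 and Timp3 among them. A match is a description of letters only.

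Summed over the family, TIMP levels were 259, 774 and 353 CPM in the WT libraries and at 1446, 1262, 1418 and 1344 CPM in the Fyn-KO libraries. Timp1 gave 27.2% to 37.9% of the TIMP counts of each Fyn-KO library and at most 0.0474% in WT. Timp4 gave 21.6% to 43.6% in WT and 0.257% to 1.02% in Fyn-KO. The protease families did not separate the groups. MMP genes summed to 473, 951 and 958 CPM in WT and to between 456 and 506 CPM in Fyn-KO, and ADAMTS genes to 502, 247 and 317 CPM in WT and to between 241 and 272 CPM in Fyn-KO. TIMP counts per count of an MMP or ADAMTS gene were 0.266, 0.646 and 0.276 in the WT libraries, against 1.86, 1.81, 1.92 and 1.76 in the Fyn-KO libraries. The ratio is of RNA tags and says nothing of protein or activity. Markers of fibroblasts and pericytes, 10 of 10 with a count in Fyn-KO and 9 of 10 in WT with Lum at 0, summed to 578 to 1499 CPM in WT and to 2145 to 3122 CPM in Fyn-KO. Cspg4 is in this list and in the oligodendrocyte lineage list. In WT replicate 1, with the sum of 578 CPM, Col1a1, Col1a2 and Col3a1 stood at 0.157, 0.548 and 0.548 CPM. Nearly all of that sum came from other genes of the list, so it may not measure fibroblasts. The fibroblast and pericyte sums were higher in Fyn-KO, as were the TIMP sum and the ovarian and adrenal markers. Within WT these marker sums were highest in replicate 3, while the TIMP sum was highest in replicate 2. The part of these cells in the TIMP sum was not tested. In sorted bulk cells, more cells of a type and more RNA per cell cannot be told apart.

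**Figure D4:**
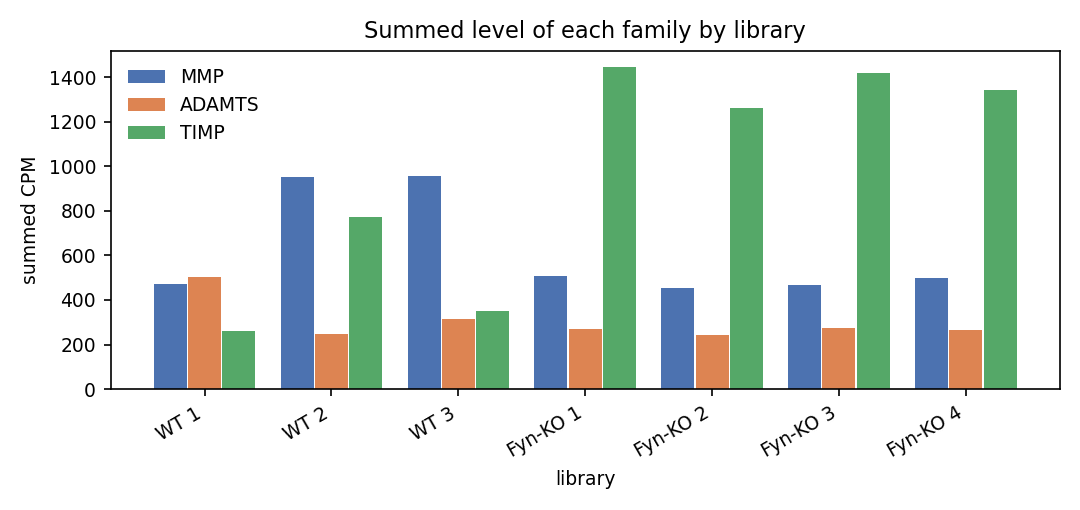
Summed CPM of the MMP, ADAMTS and TIMP genes (bars, from 0) in each of the 7 libraries. TIMP bars reach 1262 to 1446 CPM in Fyn-KO and 259 to 774 CPM in WT, while MMP and ADAMTS bars of the groups overlap.

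Among the MMPs, 10 genes lie side by side on chromosome 9 (GRCm38, 7272514 to 7699585, 427072 bases). In order these are Mmp13, Mmp12, Mmp1b, Mmp3, Mmp1a, Mmp10, Mmp8, Mmp27, Mmp20 and Mmp7, which encode collagenases, stromelysins, the macrophage metalloelastase, the enamel protease and matrilysin. Mmp12 alone was expressed at an appreciable level, with 6219 of the 6222 WT counts of the cluster. The other 3 WT counts were 2 of Mmp3 and 1 of Mmp8. In Fyn-KO the cluster had 56 counts, 38 of Mmp13 and 18 of Mmp12. The other 6 genes had no count in any library.

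Mmp12 (ENSMUSG00000049723.14, 7344381 to 7369499, plus strand), an elastase typical of macrophages, stood at 100.4, 53.3 and 341 CPM in the WT libraries and at 0, 0, 0 and 2.01 CPM in the Fyn-KO libraries. All WT libraries were above all Fyn-KO libraries, and the Fyn-KO counts came from replicate 4. The means were 165 ± 154 (SD, n = 3) and 0.501 ± 1.0 CPM (n = 4), with an edgeR adjusted p of 0.0253. Mmp12 entered the test through the WT libraries and had to differ, so the p-value is no separate support. The call ended without WT replicate 3 (log2 fold change -7.21 instead of -8.67, adjusted p = 0.0663) and without Fyn-KO replicate 1, 2 or 3 (adjusted p 0.0518 to 0.0621). Without Fyn-KO replicate 4, which left no count in that group, the fitted value was -14.20. Mmp1b overlaps the 3' end of Mmp12 on the opposite strand and had no count.

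Of the macrophage marker lists, the alveolar one was higher in WT, through Chil3 alone. Alveolar macrophage markers, 7 of 8 with a count in WT and 3 of 8 in Fyn-KO, summed to 94.8, 61.5 and 298 CPM in WT and to 7.44 to 12.9 CPM in Fyn-KO. Chil3 carried nearly all of this sum in WT, with 94.4, 58.5 and 296 CPM, and was at 0 in each Fyn-KO library. The other markers of the list together were thus lower in every WT library than in every Fyn-KO library. Marco was at 0 in all libraries. The general macrophage and microglia markers, 11 of 13 with a count in WT and 13 of 13 in Fyn-KO, overlapped at 174 to 575 and 317 to 448 CPM. P2ry12 was at 0 in WT. Chil3 and Mmp12 were both highest in WT replicate 3 and lowest of WT in replicate 2. Lung epithelium markers moved with Mmp12 as well, 7 of 8 with a count in WT and 3 of 8 in Fyn-KO. They summed to 529, 118 and 793 CPM in the WT libraries, in the same order as Mmp12, and to 0.107 to 8.75 CPM in Fyn-KO, where Sftpa1, Sftpb and Sftpd were at 0 and Foxj1 was at 0 in WT. The part of these cells in the Mmp12 result was not tested.

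The sequences before the starts of 4 genes of the cluster are shown because neighbours that share a motif there differed so much in counts. They are 120 bases of RefSeq on GRCm38.p6, all on the plus strand: chr9:7347254-7347373 for Mmp12, from a RefSeq start inside the gene's annotated span, chr9:7272394-7272513 for Mmp13, chr9:7445702-7445821 for Mmp3 and chr9:7502222-7502341 for Mmp10. Capitals mark the AP-1 motif (TGANTCA, which reads the same on both strands), with the first capital 44, 35, 46 and 63 bases before the start.
Mmp12: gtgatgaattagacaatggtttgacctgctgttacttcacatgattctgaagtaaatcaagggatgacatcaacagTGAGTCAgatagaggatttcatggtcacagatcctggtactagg
Mmp13: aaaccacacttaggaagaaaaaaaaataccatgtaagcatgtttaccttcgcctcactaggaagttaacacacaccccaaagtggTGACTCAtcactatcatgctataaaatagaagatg
Mmp3: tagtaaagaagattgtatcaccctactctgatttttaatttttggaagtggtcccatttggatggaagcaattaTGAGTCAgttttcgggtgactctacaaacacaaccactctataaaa
Mmp10: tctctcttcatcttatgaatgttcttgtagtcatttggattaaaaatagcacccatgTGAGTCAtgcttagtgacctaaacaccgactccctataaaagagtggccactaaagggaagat
In 250 bases before the start, the AP-1 letters were found for 8 of the 10 cluster genes, for 0 of the 26 other genes of the families with a window, and for 6.75% of all RefSeq starts. The letters TATAAA were found for 7 of the 10 (12.4% of all starts), with Mmp13, Mmp3 and Mmp10 among them but not Mmp12. The GC box was found for 0 of the 10. Of the genes printed, Mmp12 had 6219 WT counts, Mmp3 had 2, and Mmp13 and Mmp10 had none.

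**Figure D5:**
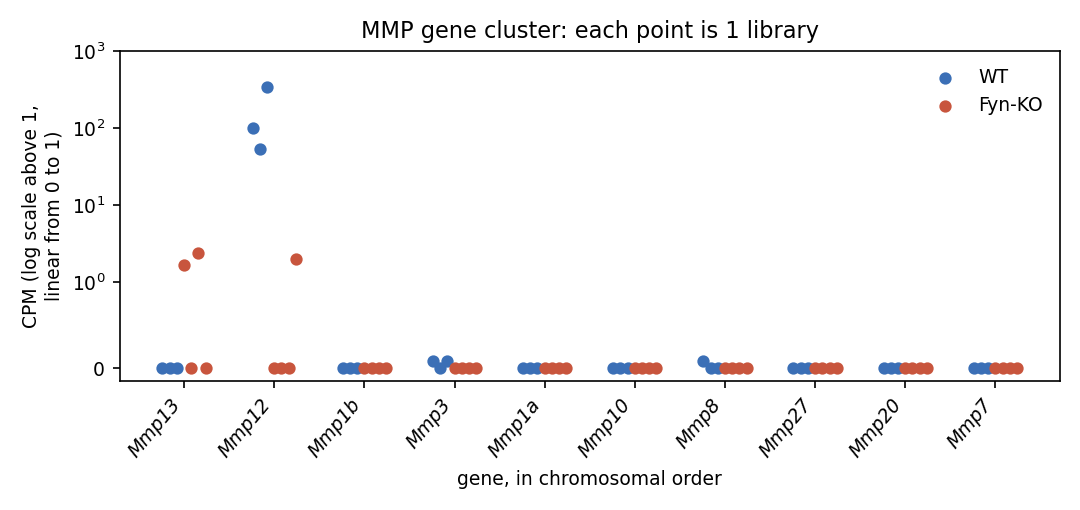
CPM of the 10 genes of the chromosome 9 cluster in chromosomal order (vertical axis linear up to 1 CPM and logarithmic above), each point a library. Mmp12 stands at 53.3 to 341 CPM in the 3 WT libraries and at 0 to 2.01 CPM in Fyn-KO, and every other gene of the cluster is at 0 or within 2.41 CPM.

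Of the membrane-type (MT) MMPs with a transmembrane domain, Mmp14, Mmp15, Mmp16 and Mmp24, Mmp15 fell and the others had no call. Mmp15 (ENSMUSG00000031790.8, chromosome 8, 95352268 to 95375080, plus strand), also called MT2-MMP, stood at 209, 196 and 287 CPM in the WT libraries and at 16.1, 11.8, 33.4 and 28.5 CPM in the Fyn-KO libraries. The groups were well separated at 231 ± 49.2 (SD, n = 3) and 22.5 ± 10.2 CPM (n = 4), 10.3-fold lower in Fyn-KO. The log2 fold change was -3.48 ± 0.67 (SE), with an edgeR adjusted p of 0.0121. The call held without any single library (log2 fold change -3.72 to -3.04) and among genes counted in both groups (-3.07, adjusted p = 0.0388). It was lost with the replicate block (-3.66, adjusted p = 0.183). Fyn-KO replicates 3 and 4, with the higher Mmp15 levels of that group, also had the higher oligodendrocyte lineage sums, 1317 and 702 CPM against 225 and 315 CPM in replicates 1 and 2. In WT, replicate 2 was lowest for both, but replicate 1 had the highest lineage sum (29474 CPM) and replicate 3 the highest Mmp15. The part of that lineage in the Mmp15 result was not tested.

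Mmp14, or MT1-MMP, the surface activator of pro-MMP2, stood at 0.0783, 69.8 and 173 CPM in the WT libraries and at 126, 118, 138 and 159 CPM in the Fyn-KO libraries. It was nearly absent from WT replicate 1 and otherwise overlapped (edgeR adjusted p = 0.885), and its log2 fold change of 0.49 turned to -0.10 without WT replicate 1. Mmp16, or MT3-MMP, stood at 0.0783, 306 and 52.8 CPM in the WT libraries and at 12, 9.71, 21.7 and 17.4 CPM in the Fyn-KO libraries. WT replicate 1 was again the low library, and the log2 fold change of -2.81 had no call (edgeR adjusted p = 0.305) but passed without that library (-3.40, adjusted p = 0.0199). Mmp24, or MT5-MMP, known from the nervous system, stood at 84.5, 17.7 and 0 CPM in the WT libraries and at 65.6, 63.5, 84.7 and 63.4 CPM in the Fyn-KO libraries (edgeR adjusted p = 0.759). A 3' exon of BC029722 overlaps its end on the opposite strand. The MMPs with a lipid anchor, Mmp17 and Mmp25, did not pass the filter on low counts, which asks for counts in enough libraries. Mmp17 had 287 counts in WT, all in replicate 2 at 17.5 CPM, and 40 in Fyn-KO. Mmp25 had 1 count in WT and 19 in Fyn-KO, all in replicate 4.

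The gelatinases, which digest denatured collagen and basement membrane collagen, had no call. Mmp2 stood at 38.0, 215 and 104 CPM in the WT libraries and at 56.9, 57.6, 52.9 and 31.0 CPM in the Fyn-KO libraries, with overlapping groups and a log2 fold change of -1.26 ± 0.75 (edgeR adjusted p = 0.318). Mmp9, the gelatinase of neutrophils and macrophages, was low throughout, with 1 count in WT and 61 in Fyn-KO, where it reached 3.17 CPM and was at 0 in replicate 4. Its edgeR adjusted p was 0.0739, and it was called higher by DESeq2 and without Fyn-KO replicate 4. Neutrophil markers, 5 of 9 with a count in WT and 6 of 9 in Fyn-KO, summed to 2.04 to 31.4 and 6.07 to 16.9 CPM, with Ngp and Elane at 0 in both.

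Mmp23 was the MMP gene that rose. It encodes a protease of unusual build that lacks the hemopexin domain of most MMPs. Mmp23 (ENSMUSG00000029061.2, chromosome 4, 155650655 to 155653384, minus strand) stood at 0, 0.0611 and 0.0839 CPM in the WT libraries and at 41.7, 23.8, 25.6 and 16.2 CPM in the Fyn-KO libraries. With 2 WT counts in all, the pooled level was 551 times higher in Fyn-KO (95% counting interval 152 to 4556, edgeR adjusted p = 0.0121). Mmp11, stromelysin-3, known from the stroma of carcinomas and activated inside the cell by furin, did not pass the test. It stood at 0, 38.5 and 0.0839 CPM in the WT libraries and at 119, 129, 81.7 and 127 CPM in the Fyn-KO libraries. The groups did not overlap, but WT replicate 2 stood apart from the other WT libraries (log2 fold change 3.41, edgeR adjusted p = 0.329), and without it the gene was called higher (adjusted p = 0.00455). Furin was likewise at 58.5 CPM in WT replicate 2, at 0.235 and 0.0839 CPM in the other WT libraries and at 78.0 to 123 CPM in Fyn-KO (adjusted p = 0.416).

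Mmp19, a secreted MMP of basement membrane substrates, stood at 40.5, 37.8 and 0 CPM in the WT libraries and at 65.1, 39.1, 21.0 and 52.1 CPM in the Fyn-KO libraries. The groups overlapped (edgeR adjusted p = 0.81). An exon of Tmem198b overlaps its 3' end on the opposite strand. Mmp21 and Mmp28 had no count, as had 6 genes of the cluster, so 8 of the 23 MMP genes were not detected at this depth.

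The ADAMTS proteases of the hyalectan-cleaving group cut versican, brevican, aggrecan and neurocan. Of the 7 genes of this group 5 were tested, 2 rose and 0 fell, where 19.0% and 3.51% of all tested genes did. Adamts9 (ENSMUSG00000030022.14, chromosome 6, 92772699 to 92943492, minus strand), which cuts versican in mouse development, stood at 0, 0.183 and 0.0839 CPM in the WT libraries and at 24.5, 11.8, 8.54 and 18.5 CPM in the Fyn-KO libraries. The 4 WT counts gave a pooled ratio of 162 (95% counting interval 62.8 to 595, edgeR adjusted p = 0.0132). Adamts15 (ENSMUSG00000033453.8, chromosome 9, 30899155 to 30922452, minus strand) stood at 0, 0 and 0.0839 CPM in the WT libraries and at 5.11, 5.39, 2.08 and 3.90 CPM in the Fyn-KO libraries. A single WT count stands behind its ratio of 171 (95% counting interval 30.3 to 6804, edgeR adjusted p = 0.0155), and the call ended without WT replicate 1 (adjusted p = 0.0593).

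Adamts1, a versican-cleaving protease known for its part in ovulation in mice, was the most abundant ADAMTS gene in 5 of the 7 libraries. It stood at 253, 152 and 18.1 CPM in the WT libraries and at 76.8, 77.8, 55.9 and 75.0 CPM in the Fyn-KO libraries. The WT libraries spanned the Fyn-KO range, and the log2 fold change of -0.93 had no call (edgeR adjusted p = 0.519) but passed as a fall without WT replicate 3 (adjusted p = 0.0468). Adamts4, an aggrecanase that also cuts brevican, stood at 248, 0.489 and 0 CPM in the WT libraries and at 2.88, 2.89, 5.04 and 1.89 CPM in the Fyn-KO libraries. Its WT mean rested on replicate 1, and the log2 fold change of -4.70 (edgeR adjusted p = 0.222) turned to 3.85 without that library. Adamts5, the other main aggrecanase, stood at 0.0783, 30.2 and 23.5 CPM in the WT libraries and at 32.1, 22.3, 35.4 and 21.1 CPM in the Fyn-KO libraries (edgeR adjusted p = 0.867). The groups overlapped, with WT replicate 1 near 0. Adamts20, known from the mouse coat colour mutant belted, was at 175 CPM in WT replicate 3, at 0 in the other WT libraries and at 3.06 CPM in Fyn-KO replicate 3, with 0 in the rest. Adamts8 had 1 count in WT and 3 in Fyn-KO.

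Of the procollagen N-propeptidases, which trim fibrillar collagens, Adamts2 rose. Adamts2 (ENSMUSG00000036545.8, chromosome 11, 50602084 to 50807573, plus strand) stood at 0, 0 and 0.336 CPM in the WT libraries and at 51.0, 51.8, 40.4 and 44.6 CPM in the Fyn-KO libraries. Its 4 WT counts all lay in replicate 3, and the pooled level was 484 times higher in Fyn-KO (95% counting interval 189 to 1779, edgeR adjusted p = 0.0258). The call ended without any single Fyn-KO library (adjusted p 0.0582 to 0.0725). Adamts3 had no WT count and 106 in Fyn-KO, at 0 to 5.14 CPM. Adamts14 had 261 counts in WT, nearly all in replicate 2 at 15.9 CPM, and 11 in Fyn-KO.

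The relatives that cut cartilage oligomeric matrix protein were counted in Fyn-KO alone. Adamts7 (ENSMUSG00000032363.15, chromosome 9, 90163069 to 90208071, plus strand) was without WT counts and stood at 14.4, 16.9, 5.25 and 9.36 CPM in Fyn-KO. Against a floor of 3 counts per WT library (0.252 CPM) its mean of 11.5 ± 5.21 CPM was at least 45.6-fold higher (edgeR adjusted p = 0.0121). An exon of Tbc1d2b overlaps its 3' end on the opposite strand. Adamts12 had no WT count and stood at 6.50, 0, 0 and 19.0 CPM in Fyn-KO, too uneven to enter the test.

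Of the members tied to fibrillin microfibrils, Adamts19 rose. It belongs with Adamts17 in a branch of the family close to Adamts10 and Adamts6, and is known for expression in the developing ovary of mice. Adamts19 (ENSMUSG00000053441.5) was without WT counts and stood at 7.14, 6.35, 2.63 and 12 CPM in the Fyn-KO libraries, at least 27.9-fold above the WT floor (edgeR adjusted p = 0.0121). Adamts10 stood at 0, 47.3 and 0.0839 CPM in the WT libraries and at 39.0, 39.8, 105 and 58.0 CPM in the Fyn-KO libraries. WT replicate 2 lay within the Fyn-KO range and the others at or near 0 (edgeR adjusted p = 0.574), and without replicate 2 the gene was called higher (adjusted p = 0.00581). Adamts17 was at 0, 0.122 and 99.1 CPM in WT and had 17 counts in Fyn-KO, all in replicate 3. Adamts6 had no WT count and 96 in Fyn-KO, mostly in replicate 1 at 8.95 CPM.

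The remaining ADAMTS genes were low. Adamts13, the von Willebrand factor-cleaving protease made in liver, had 23 counts in WT and 7 in Fyn-KO. Liver markers, 8 of 8 with a count in WT and 4 of 8 in Fyn-KO with Alb at 0 there, summed to 269 to 423 and 5.04 to 13.3 CPM, and their part in this was not tested. Adamts16 had 19 counts, all in Fyn-KO replicate 1, and Adamts18 had none. Among the ADAMTS-like genes, Adamtsl4 (ENSMUSG00000015850.11, chromosome 3, 95676201 to 95687917, minus strand) rose. It encodes a protein that binds fibrillin-1 and stood at 0, 0 and 0.0839 CPM in the WT libraries and at 18.6, 15.9, 7.44 and 12.8 CPM in the Fyn-KO libraries. The single WT count gave a pooled ratio of 567 (95% counting interval 101 to 22425, edgeR adjusted p = 0.0127). Adamtsl1, or punctin, stood at 0, 51.2 and 0 CPM in the WT libraries and at 4.26, 8.56, 10.9 and 0 CPM in the Fyn-KO libraries (edgeR adjusted p = 0.819). Its fitted log2 fold change of -1.22 turned to 8.92 without WT replicate 2. Adamtsl3 was at 32.4 CPM in WT replicate 2 and at 3.50 CPM or less elsewhere, Adamtsl5 had 2 counts in WT, and Adamtsl2 had none.

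Levels within the WT group were uneven for these genes as for the table as a whole. Of 21 members that reached 10 CPM in a WT library, 14 (66.7%) were below 1 CPM in another WT library, against 64.8% of the 9628 genes that reached it. In Fyn-KO this held for 2 of 22 members (9.09%, Adamts12 and Adamtsl1), against 4.81% of 11077 genes. The leading genes differed accordingly. The most abundant MMP gene was Mmp15 in WT replicate 1, Mmp16 in replicate 2 and Mmp12 in replicate 3, and in Fyn-KO it was Mmp14 in replicates 1, 3 and 4 and Mmp11 in replicate 2. Members with a count numbered 19, 25 and 22 in the WT libraries, against 31, 29, 34 and 26 in the Fyn-KO libraries.

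Substrates of the ADAMTS proteases included 3 that fell, all hyalectans. Of 12 listed genes 10 were tested, with 0 higher and 3 lower by edgeR, where 19.0% of all tested genes rose and 3.51% fell. The median log2 fold change was -0.88, against 0.45 over all tested genes. At an unadjusted p under 0.05 the count of higher genes was 0 as well, while 2 were higher with DESeq2, 2 with the replicate block and 4 without WT replicate 3. The lower genes numbered 4 at an unadjusted p under 0.05, 4 with DESeq2 and 4 with limma-voom. They numbered 2 among genes counted in both groups and 2 without Fyn-KO replicate 1, 2 or 4. Vcan, or versican, stood at 855 ± 361 CPM in WT but 156 ± 26.4 CPM in Fyn-KO (log2 fold change -2.45, edgeR adjusted p = 0.0121). Bcan, or brevican, the chief hyalectan of adult brain, stood at 1143 ± 410.4 and 55.9 ± 45.0 CPM (-4.38, adjusted p = 0.0121). Acan, or aggrecan, was at 78.5 to 192 CPM in WT and at 0 in 3 of 4 Fyn-KO libraries (adjusted p = 0.0257, lost without Fyn-KO replicate 1, 2 or 4, 0.0539 to 0.0561, and with the block, 0.0564). Like Mmp12, Acan entered the test through the WT libraries and had to differ. Ncan, or neurocan, the other listed hyalectan, stood at 626 ± 364 and 26.1 ± 30.7 CPM. Every WT library was above every Fyn-KO library, but it had no call (edgeR adjusted p = 0.0767). Of the others, the collagens and fibronectin lay higher in every Fyn-KO library than in every WT library, without a call. Col1a1 stood at 66.4 ± 67.2 and 179 ± 12.9 CPM (adjusted p = 0.664), Col1a2 at 140.4 ± 232 and 768 ± 167 CPM (0.486), Col3a1 at 101 ± 133 and 773 ± 192 CPM (0.277) and Fn1 at 1.81 ± 3.08 and 49.6 ± 23.9 CPM (0.216). The 3 collagens are also among the fibroblast markers above. The levels of Bcan in Fyn-KO, 19.5, 30.5, 119.9 and 53.7 CPM, were higher in the libraries with the higher oligodendrocyte lineage sums. In WT, replicate 1 was highest for both, but Bcan was lowest in replicate 3 (878 CPM) and the lineage sum in replicate 2.

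Fibrillin microfibril genes, the partners of several ADAMTS and ADAMTS-like proteins, held 7 that rose and 0 that fell of 14 tested, where 19.0% of all tested genes rose. The 7 were Ltbp1, Ltbp2, Fbln1, Fbln2, Mfap2, Mfap5 and Efemp1, each with 0 to 3 counts in all WT libraries together, so they entered the test through Fyn-KO and had to differ. The count became 0 with limma-voom, 0 among genes counted in both groups and 1 with the replicate block. None was lower at an unadjusted p under 0.05 (0 genes in edgeR) or by DESeq2 (0 genes). Ltbp1, which anchors latent TGF-beta, had 3 counts over the WT libraries but 176 ± 4.20 CPM in Fyn-KO, a pooled ratio of 2412 (95% counting interval 825 to 11697, edgeR adjusted p = 0.0121). Mfap2 had 3 WT counts and 44.1 ± 4.69 CPM (602, interval 206 to 2921), and Fbln2 had no WT count and 8.85 ± 1.68 CPM, at least 35.1-fold above the floor. Fbn1 itself had no call (8.42 ± 14.4 against 49.5 ± 4.67 CPM, adjusted p = 0.443). The 4 enzymes that add sugars to thrombospondin repeats had no call by edgeR (0 genes, 1 higher at an unadjusted p under 0.05, 1 by DESeq2 and 1 each without WT replicate 2 or 3).

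Of 13 tested activators, receptors and other inhibitors, 2 rose and 2 fell, where 19.0% and 3.51% of all tested genes did. The higher genes numbered 6 at an unadjusted p under 0.05, 6 with DESeq2, 5 without Fyn-KO replicate 1, 1 with the replicate block and 0 with limma-voom. Among genes counted in both groups 0 were higher and 0 lower, with the block 0 were lower, and with limma-voom or without Fyn-KO replicate 1, 2 or 3, 1 was lower. Pcsk5, a proprotein convertase, had 3 WT counts and stood at 188 ± 31.8 CPM in Fyn-KO (pooled ratio 2571, 95% counting interval 879 to 12471, edgeR adjusted p = 0.0121). Thbs1, thrombospondin-1, had no WT count and 76.5 ± 8.19 CPM, at least 304-fold above the floor (adjusted p = 0.0121). Pcsk5 and Thbs1 thus entered the test through Fyn-KO and had to differ. Lrp1, the endocytic receptor that clears MMPs and TIMPs, fell from 850.2 ± 495 to 267 ± 13.2 CPM (log2 fold change -1.71, adjusted p = 0.0139, but 0.0950 among genes counted in both groups and 0.188 with the block). Pcsk7 fell from 205 ± 165 to 22.9 ± 9.47 CPM (-3.42, adjusted p = 0.0189), a call that ended without Fyn-KO replicate 1, 2 or 3 (0.0514 to 0.0574), with limma-voom (0.0528), with the block (0.211) and among genes counted in both groups (0.0787). Bsg, which induces MMPs in neighbouring cells, stood at 174 ± 11.9 and 188 ± 24.8 CPM (adjusted p = 0.994). Reck, a membrane inhibitor of MMPs, had no WT count and 33 in Fyn-KO, and did not pass the filter.

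Of 6 tested genes of the plasminogen activator system, which activates several pro-MMPs, 2 rose and 1 fell, where 19.0% and 3.51% of all tested genes did. The rises became 0 with limma-voom, with the block and among genes counted in both groups. The fall became 0 with the block and among genes counted in both groups, and without WT replicate 1 there were 2. Plau, urokinase, had no WT count and stood at 49.4, 52.5, 7.66 and 38.7 CPM in the Fyn-KO libraries, at least 147-fold above the floor (edgeR adjusted p = 0.0121). Serpini1, neuroserpin, had no WT count and 15.1 ± 7.24 CPM. Plau and Serpini1 thus entered the test through Fyn-KO and had to differ. Serpine2, protease nexin-1, fell from 1044 ± 542 to 249 ± 31.6 CPM (log2 fold change -2.02, adjusted p = 0.0121, but 0.0591 among genes counted in both groups and 0.0774 with the block). Of 11 tested ADAM proteases, the membrane-anchored relatives, 0 rose by edgeR (1 at an unadjusted p under 0.05, 1 by DESeq2) and Adam12 fell, from 174 ± 132 to 10.4 ± 4.04 CPM (-4.15, adjusted p = 0.0122, but 0.0506 among genes counted in both groups and 0.206 with the block). The ADAM genes higher numbered 1 without WT replicate 2 and 1 without Fyn-KO replicate 1, and those lower 2 with DESeq2 and 2 without WT replicate 3.

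The 8 rises rest on near-absent WT counts. None of the 8 was called by limma-voom with quality weights (0 members higher, 3 lower) and none could be tested when at least 10 counts were required in 2 WT and 3 Fyn-KO libraries, where Mmp15 was the member called lower.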

How the data were processed

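Gene expression was measured in 3 WT and 4 Fyn-KO libraries. The authors deposited a table of raw counts, whole numbers per gene and library, which they call modified without saying how in the labels. Per the submitters' processing notes, Bowtie2, bedtools, the build mm10 (GRCm38) and DESeq2 1.32.0 were used. Annotation and strand of counting are not given in these sources.

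From the counts, CPM were computed as counts per 1000000 of the library total. Genes were filtered with filterByExpr (at least 10 counts, 15 in all), scaled by TMM and tested on the whole table with the two-sided quasi-likelihood F test of edgeR 4.0.16 in R 4.3.3, without covariates, calling genes at an adjusted p (Benjamini-Hochberg, over 13122 genes) under 0.05. P-values measure the spread between these libraries. The approximate SE divides the log2 fold change by the root of its F value. Where the lower group had fewer than 10 counts in all, pooled counts were compared as a ratio with an exact 95% binomial interval, and where it had none, a bound against 3 counts per library. Both cover counting error only, since tags carry no molecular identifiers. Neither covers the unevenness of the WT libraries, where 64.8% of genes that reached 10 CPM in 1 library were below 1 CPM in another. The folds given as at least a value are bounds on counting alone.

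The column of WT replicate 3 is named in the description of 1 WT sample and is the title of another, so it was taken as a WT library that no single sample label identifies. Genes given by library are the TIMP genes, members past the threshold and members reaching a mean of 10 CPM in a group, and of each other list up to 4 genes past the threshold; others were named after their values were seen. Members, lists and alternatives were chosen with earlier results of these data known. Coordinates are from GENCODE M21 for GRCm38 and promoter sequences from RefSeq for GRCm38.p6. The alternatives were scaling by library sizes alone or RLE factors, a minimum count of 50 or none, genes counted in both groups, DESeq2 1.42.0, limma 3.58.1 (voom with quality weights), a replicate block and each library left out.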

Additional observations from a re-analysis of the deposited data

Results flagged for a closer look

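Among the 4 Fyn-KO libraries, 6 of 27 genes examined had a library that stood apart from the other 3 by Dixon's test. Its chance rate of about 1 in 20 groups is for normally distributed values. Adamts17, Adamts20 and Mmp12 had no count in the other 3 libraries and Adamtsl3 almost none, so the rate does not apply to them. For 5 of the 6 genes the library apart was Fyn-KO replicate 3, which had the most members counted (34). It was low for Adamts1 (55.9 CPM, others 75.0 to 77.8). It was high for Mmp24 (84.7 CPM, others 63.4 to 65.6) and for Adamts17 (1.86 CPM), Adamts20 (3.06 CPM) and Adamtsl3 (3.50 CPM), which were at 0 or at most 0.0962 CPM in the other Fyn-KO libraries. Mmp12 was counted in Fyn-KO replicate 4 alone (2.01 CPM). The same library, Fyn-KO replicate 3, had the highest oligodendrocyte lineage sum of the group (1317 CPM), and whether that bears on these values was not tested.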

How the results depend on the processing

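Of 343 alternative log2 fold changes of 24 tested members, Mmp9 not among them, 300 kept direction and side of the threshold, 29 lost the call, 7 gained one and 7 changed sign. A further 17 could not be tested. The changes of sign were in genes without a call: Adamts4 (limma-voom 1.24, replicate block 2.47, -5.29 to 3.85 with a library left out), Adamtsl1 (block 6.43, -1.80 to 8.92), Adamts5 (-0.019 to 1.15) and Mmp14 (-0.10 to 2.23). The opposite sign came without WT replicate 2 for Adamtsl1 and without WT replicate 1 for the others. Members higher numbered 0 among genes counted in both groups, 0 with limma-voom, 1 (Timp1) with the replicate block and 12 with DESeq2, which added Adamts3, Adamts6, Adamts12 and Mmp9, and 7 to 11 when each library was left out. Members lower numbered 1 (Mmp15) among genes counted in both groups, 1 (Mmp12) with the block and 1 to 4 when each library was left out, with 1 without Fyn-KO replicate 1 or 2. Over all genes, 2493 higher became 52 among genes counted in both groups, 24 with limma-voom and 188 with the replicate block. They numbered 3679 with DESeq2 and 2190 to 4585 with a library left out. The 461 lower became 139 among genes counted in both groups, 135 with the block, 768 with DESeq2 and 247 to 839 with a library left out. The causes were not tested, apart from the fewer genes tested where counts were required in both groups. Libraries with the same replicate number did not deviate together (r = -0.013, -0.008 and -0.025), so the numbers were not taken to pair them. The median log2 fold change of all genes (0.45) was 0.43 and 0.44 with RLE factors and library sizes alone, but -0.20 among genes counted in both groups, 0.90 without a filter, 2.49 with limma-voom, 3.45 with the block and 1.91 without WT replicate 2. The members' median (1.17) was then 0.90, 1.03, 3.19, 2.66 and 3.82, so with the block it lay below that of all genes. Counts of members that did not overlap between groups were 14 with TMM-scaled sizes and 14 to 18 with a library left out. Leaving a library out can only keep or raise such counts, and the matching shares of all genes were not computed. A gene without counts is not detected at this depth (0.252 CPM for WT, 0.334 CPM for Fyn-KO). Given the uneven WT libraries, a count of 0 does not show that the gene lay below this level in the cells.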
